A study of Homo sapiens with 9 samples.

Results

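The ErbB receptors, the growth factors that bind them and a pair of genes that respond to them were followed across cells depleted of ACSL4, cells given the ACSL4 inhibitor PRGL493, and controls. The 10 genes were chosen by name: the receptors EGFR, ERBB2 and ERBB3, the ligands HBEGF, AREG, EREG, TGFA and NRG1, and the feedback genes ERRFI1 and PHLDA1. All 10 were found among the 26475 gene rows of the count table, and all 10 were among the 14135 genes with enough reads to be tested. The cells were of the human line MDA-MB-231, which was derived from a breast adenocarcinoma and is triple-negative. ACSL4 knockdown cells were stably transduced with the pLKO.1-shACSL4 plasmid, a lentiviral short hairpin construct. PRGL493 cells carried the empty pLKO.1 vector and were given the inhibitor, with no dose, time or vehicle given in the sources used here. Control cells carried the empty pLKO.1 vector and had no treatment. Each group had 3 libraries of total RNA, made from separate batches of cells. The knockdown rests on 1 hairpin construct, and both treated groups were compared with the same 3 control libraries.

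ErbB receptors are cell-surface tyrosine kinases that pair up when a ligand binds and then signal through RAS and MAP kinase, PI3K and STAT proteins. EGFR binds HBEGF, AREG, EREG and TGFA, ERBB3 binds the neuregulin NRG1 and has little kinase activity of its own, and ERBB2 has no known ligand and acts as a partner. The ligands are made as membrane-anchored precursors that proteases such as ADAM17 cut free, so a transcript level is not a level of free growth factor. ERRFI1 (also called MIG6) binds and inhibits the EGFR kinase domain, and PHLDA1 is a pleckstrin-homology-like protein whose transcript is known to follow MAP kinase activity. In triple-negative breast cancer EGFR is often abundant.

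Library totals were between 28673940 and 43027217 counts. ACSL4 itself was at 29.5, 23.7 and 27.6 CPM (counts relative to the library total, scaled by trimmed mean of M-values) in knockdown cells, at 333, 350 and 360 CPM in PRGL493 cells and at 342, 339 and 366 CPM in control cells. The knockdown libraries thus held 7.73% of the control level, while PRGL493 and control libraries overlapped. VIM, CD44, AXL, CAV1 and KRT18, which mark this line, summed to 5410 to 5710 CPM in knockdown cells, 5470 to 5500 CPM in PRGL493 cells and 5480 to 5580 CPM in control cells. The sums hide opposite changes in PRGL493 against control cells. There CD44 was higher, at a log2 fold change of 0.21 (adjusted p = 0.0011), and AXL was lower, at -0.24 (adjusted p = 0.00038). The luminal breast genes ESR1, PGR, GATA3, FOXA1 and CDH1 together summed to at most 16.6 CPM in any library. Most of that sum was GATA3, at means of 14.2, 14.4 and 11.1 CPM in knockdown, PRGL493 and control cells. CDH1 was at 1.60, 0.659 and 2.02 CPM in the same groups. Of blood cell genes, PTPRC and CD3E had at most 3 counts in any library. The lysosomal gene CD68 was at 140 to 151 CPM in knockdown cells, 91.4 to 101 CPM in PRGL493 cells and 121 to 135 CPM in control cells, and its part in the results was not tested. In bulk RNA, fewer cells expressing a gene and less RNA of it per cell cannot be told apart.

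In knockdown cells 9 of the 10 genes passed the test against control cells at an adjusted p below 0.05, beside 30.1% of all genes tested. Of these, 2 were higher, beside 14.7% of all genes, and 7 were lower, beside 15.3%. With library totals alone as the scaling, the share of higher genes among all that passed this comparison was 59.8%, against 49.0% with the scaling used here. In PRGL493 cells 7 of the 10 passed against control cells, beside 41.8% of all genes; 1 was higher, beside 21.4%, and 6 were lower, beside 20.4%. The median log2 fold change of the 10 genes was -0.21 in knockdown and -0.42 in PRGL493 cells, against 0.001 and 0.0094 over all genes tested. The backgrounds are high, and the 10 genes were chosen with earlier results of these data known. The counts alone therefore say little, and the sizes below carry the description. In each comparison with control cells, HBEGF was the only one of the 10 that passed the test with a change of at least 2-fold.

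**Figure D1:**
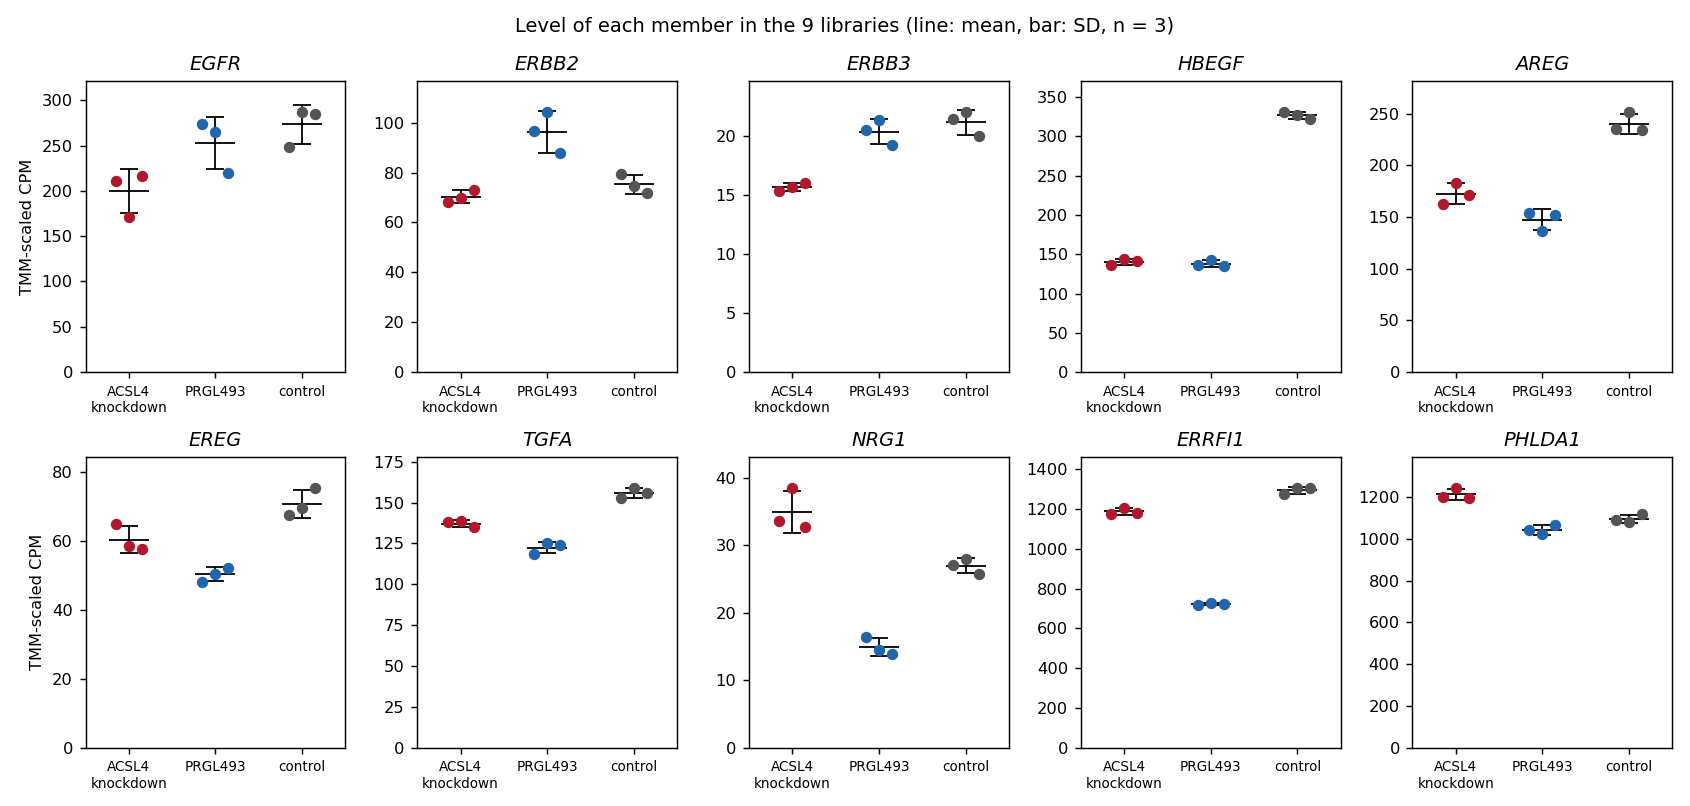
Level of each of the 10 genes in every library, in CPM scaled by library size, with knockdown, PRGL493 and control libraries from left to right, 1 point per library and a bar at the group mean. HBEGF lay near 140 CPM in all 6 treated libraries, below every control library, while NRG1 was highest in knockdown and lowest in PRGL493 cells.

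The levels of the genes relative to each other were set per kb of the main transcript in GENCODE release 29. ERRFI1 had the highest level of the 10 in all groups, at 383 ± 5.42, 233 ± 1.78 and 417 ± 5.78 CPM per kb in knockdown, PRGL493 and control cells (SD, n = 3 libraries each, as for all means below). ERBB3 had the lowest on this scale, at 2.65 ± 0.055, 3.44 ± 0.183 and 3.57 ± 0.175 CPM per kb. In control cells the order below ERRFI1 was AREG at 194, HBEGF at 137, PHLDA1 at 136, TGFA at 36.2, EGFR at 27.9, ERBB2 at 16.6, EREG at 15.3 and NRG1 at 13.2 CPM per kb. HBEGF and PHLDA1 overlapped between libraries in that order, as did ERBB2 and EREG. HBEGF stood lower in both treated groups, at 58.9 CPM per kb in knockdown and 57.8 CPM per kb in PRGL493 cells, where PHLDA1 and AREG were both above it. In knockdown cells EGFR, NRG1 and ERBB2 ran together at 20.3, 17.2 and 15.5 CPM per kb, with EGFR and NRG1 overlapping between libraries. The lowest NRG1 library and the highest ERBB2 library there were both at 16.1 CPM per kb. In PRGL493 cells TGFA at 28.4 and EGFR at 25.7 CPM per kb overlapped, as did EGFR and ERBB2 at 21.2 CPM per kb. The place of NRG1 depends on its length, since its main transcript has 2035 bases and all its annotated exons together have 9211. On the longer length its control level was 2.92 CPM per kb. In PRGL493 cells it was then 1.62 CPM per kb, below ERBB3 at 2.74 CPM per kb by the same measure.

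The receptors moved in different ways. EGFR (chr7:55019021-55211628, plus strand, GRCh38) was at 211, 172 and 217 CPM in knockdown cells, 274, 265 and 220 CPM in PRGL493 cells and 249, 287 and 285 CPM in control cells. Every knockdown library lay below every other library, and PRGL493 and control libraries overlapped. The log2 fold change in knockdown against control cells was -0.45 ± 0.106 (SE as implied by the test, here and below; adjusted p = 0.0097). In PRGL493 against control cells it was -0.11, with a 95% interval of -0.35 to 0.12 and an adjusted p of 0.42. Knockdown cells were lower than PRGL493 cells by a log2 fold change of -0.34 (adjusted p = 0.022). That difference did not pass without knockdown replicate 1 (adjusted p = 0.066), knockdown replicate 2 (0.079), PRGL493 replicate 1 (0.076) or PRGL493 replicate 2 (0.076).

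Knockdown replicate 2, which held the lowest EGFR level, also differed from the other libraries by transcript length. In it the 3333 genes with the longest transcripts, at 5139 bases or more, had a median of -0.169 on the log2 scale relative to the mean of all libraries, and the 3333 with the shortest, at 2149 bases or fewer, had 0.176. The other 8 libraries lay between -0.075 and 0.06. The main EGFR transcript has 9821 bases, and the part of length in its lower level was not tested. Without that library the EGFR log2 fold change in knockdown against control cells was -0.36 (adjusted p = 0.03). Groups differed by length too: median log2 fold changes were 0.08 (shortest) and -0.071 (longest) in knockdown against control cells. They were 0.131 and -0.099 in knockdown against PRGL493 cells, and -0.036 and 0.029 in PRGL493 against control cells. By main transcript, AREG (1240 bases) and NRG1 (2035) are among the shortest. ERBB3 (5919) and PHLDA1 (8069) are among the longest. The part of length in the changes of these genes was not tested.

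ERBB2 (chr17:39687914-39730426, plus strand), the partner receptor, was at 68.1, 69.9 and 73.2 CPM in knockdown cells, 96.9, 104.2 and 87.7 CPM in PRGL493 cells and 79.5, 74.5 and 71.9 CPM in control cells. The 3 PRGL493 libraries stood above the other 6, and knockdown and control libraries overlapped. The log2 fold change was 0.35 ± 0.0652 in PRGL493 against control cells (adjusted p = 0.00037). In knockdown against control cells it was -0.10, with a 95% interval of -0.24 to 0.04 and an adjusted p of 0.28. Knockdown cells were lower than PRGL493 cells, at -0.45 (adjusted p = 2.4e-05).

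ERBB3 (chr12:56076799-56103505, plus strand), the neuregulin receptor, was at 15.4, 15.7 and 16.0 CPM in knockdown cells, 20.5, 21.4 and 19.2 CPM in PRGL493 cells and 21.45, 22 and 19.99 CPM in control cells. The knockdown libraries lay below all others, while PRGL493 and control libraries overlapped. Its log2 fold change was -0.43 ± 0.0708 in knockdown against control cells (adjusted p = 0.00024) and -0.38 in knockdown against PRGL493 cells (adjusted p = 3e-04). In PRGL493 against control cells it was -0.05, with a 95% interval of -0.20 to 0.09 and an adjusted p of 0.57. EGFR and ERBB3 therefore fell with the knockdown, and ERBB2 rose with the inhibitor. The exons of EGFR overlap those of EGFR-AS1, and the exons of ERBB2 overlap those of MIEN1 and PGAP3, all on the opposite strand. Whether counting used strand is not given in the sources used here, so reads of these neighbours could enter the counts of EGFR and ERBB2. ERBB3 shares up to 31 bases of an exon with AC034102.2 on the same strand, where reads could be split under any strand setting.

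HBEGF, AREG, EREG and TGFA were lower in both treated groups, and the promoters of HBEGF, AREG and EREG are shown as examples of genes that moved together. TGFA has 2 RefSeq windows, which are not printed, and neither held any of the 5 motifs named below. The windows come from RefSeq (GRCh38.p14), run from 250 bases before to 50 bases after the gene's start, and read 5′ to 3′ along the gene. AREG (window chr4:74444886-74445185) and EREG (chr4:74364895-74365194) lie on the plus strand, and HBEGF (chr5:140346554-140346853) lies on the minus strand. From the end of the EREG gene to the start of the AREG gene is 56.4 kb. Capitals mark a cyclic AMP response element (CRE, TGACGTCA) and a TATA box (TATAAA).
HBEGF: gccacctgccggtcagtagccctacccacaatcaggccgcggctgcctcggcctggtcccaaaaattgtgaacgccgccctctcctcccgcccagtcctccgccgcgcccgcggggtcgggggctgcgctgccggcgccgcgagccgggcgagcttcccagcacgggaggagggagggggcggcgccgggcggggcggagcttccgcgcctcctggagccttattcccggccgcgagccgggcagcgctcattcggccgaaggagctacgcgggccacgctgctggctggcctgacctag
AREG: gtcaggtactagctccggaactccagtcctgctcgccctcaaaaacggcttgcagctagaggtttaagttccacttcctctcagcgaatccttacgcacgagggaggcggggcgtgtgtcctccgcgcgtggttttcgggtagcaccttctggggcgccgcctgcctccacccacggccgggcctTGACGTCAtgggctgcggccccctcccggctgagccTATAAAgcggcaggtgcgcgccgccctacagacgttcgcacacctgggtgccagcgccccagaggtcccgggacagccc
EREG: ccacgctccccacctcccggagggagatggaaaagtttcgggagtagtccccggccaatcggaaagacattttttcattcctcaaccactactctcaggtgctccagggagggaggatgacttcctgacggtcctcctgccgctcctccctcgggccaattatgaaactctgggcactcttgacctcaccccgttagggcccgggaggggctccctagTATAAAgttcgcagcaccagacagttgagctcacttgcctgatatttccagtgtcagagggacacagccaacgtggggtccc
Both strands were searched for these letters and for the AP-1 site TGANTCA, the EGR site GCGNGGGCG and the CArG box, and the TATA box was added after the sequences were seen. AREG held the CRE 65 bases before its start and a TATA box 29 bases before it, and EREG held a TATA box 32 bases before its start. The HBEGF window held none of the 5 motifs, and 75.0% of its bases were G or C, against 66.3% for AREG and 57.7% for EREG. Of 35116 RefSeq promoter windows of the same length, 1.85% held the CRE, 11.5% the TATA box, 7.71% the AP-1 site, 9.43% the EGR site and 1.29% the CArG box. A match describes letters and is no evidence of binding.

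HBEGF (chr5:140332843-140346631, minus strand), heparin-binding EGF-like growth factor, changed most of the 10 in both comparisons with control cells. It was at 136.5, 143.8 and 141 CPM in knockdown cells, 136.7, 142.6 and 134.7 CPM in PRGL493 cells and 330.9, 327.6 and 321.7 CPM in control cells. Knockdown and PRGL493 libraries overlapped, and all 6 were below every control library. Knockdown cells held 43.0% of the control level, a log2 fold change of -1.22 ± 0.0472 (adjusted p = 3.8e-12). PRGL493 cells held 42.2%, a log2 fold change of -1.24 ± 0.0474 (adjusted p = 3.9e-12). A fall at least as large was seen in 170 genes, 1.20% of those tested, in knockdown cells and in 296 genes, 2.09%, in PRGL493 cells. Between knockdown and PRGL493 cells HBEGF differed by 0.03 on the log2 scale, with a 95% interval of -0.07 to 0.12 and an adjusted p of 0.68.

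AREG (amphiregulin, chr4:74445134-74455009, plus strand) was at 163, 183.4 and 171.4 CPM in knockdown cells, 154.4, 136.2 and 152.2 CPM in PRGL493 cells and 235.5, 251.5 and 234.1 CPM in control cells. No groups overlapped, and PRGL493 cells were lowest. Its log2 fold change was -0.48 ± 0.0594 in knockdown (adjusted p = 1.6e-05) and -0.70 ± 0.0598 in PRGL493 cells (adjusted p = 1.2e-07), both against control cells. Knockdown cells were above PRGL493 cells by 0.22 (adjusted p = 0.0048).

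EREG (epiregulin, chr4:74365143-74388751, plus strand), the neighbour of AREG, was at 64.7, 58.6 and 57.5 CPM in knockdown cells, 48.1, 50.5 and 52.2 CPM in PRGL493 cells and 67.3, 69.4 and 75.3 CPM in control cells. The groups stood in the same order as for AREG, again with no overlap. The log2 fold change was -0.49 ± 0.0639 in PRGL493 against control cells (adjusted p = 1.2e-05) and 0.26 in knockdown against PRGL493 cells (adjusted p = 0.0025). In knockdown against control cells it was -0.23 ± 0.0631 (adjusted p = 0.011), which did not pass without control replicate 3 (adjusted p = 0.076) or knockdown replicate 3 (0.061).

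TGFA (transforming growth factor alpha, chr2:70447280-70554193, minus strand) was at 137.9, 138.7 and 135 CPM in knockdown cells, 118.6, 125 and 123.8 CPM in PRGL493 cells and 152.7, 159 and 156.1 CPM in control cells. Its groups did not overlap, and its changes were the smallest among these 4 ligands in both comparisons with control cells. The log2 fold change was -0.18 ± 0.0476 in knockdown (adjusted p = 0.0077) and -0.35 ± 0.0479 in PRGL493 cells (adjusted p = 2.3e-05), both against control cells. Knockdown cells were above PRGL493 cells by 0.16 (adjusted p = 0.0088). AREG, EREG and TGFA were thus each lower in PRGL493 than in knockdown cells, whereas HBEGF did not pass between them.

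**Figure D2:**
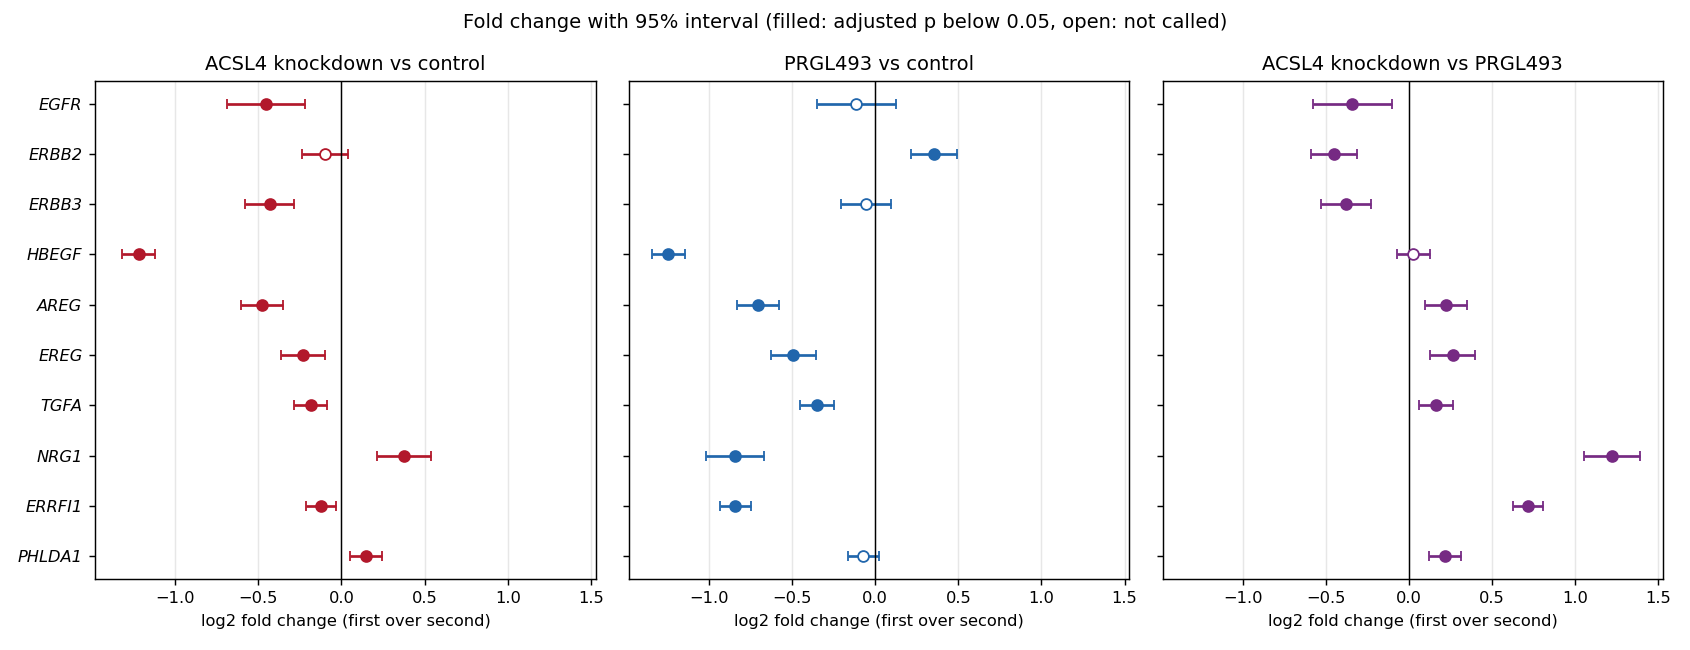
Log2 fold change of each gene with its 95% interval for each treated group against control cells and for the treated groups against each other. HBEGF was at -1.22 and -1.24 against control cells and at 0.03 between the treated groups, and NRG1 was at 0.38 and -0.85 against control cells and at 1.22 between the treated groups.

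NRG1 (chr8:31639386-32767959, plus strand), the neuregulin that binds ERBB3, moved in opposite directions in the treated groups. It was at 33.6, 38.5 and 32.8 CPM in knockdown cells, 16.4, 14.5 and 13.9 CPM in PRGL493 cells and 27.05, 27.97 and 25.77 CPM in control cells. No groups overlapped: knockdown libraries were all above and PRGL493 libraries all below the control libraries. The log2 fold change was 0.38 ± 0.0774 in knockdown (adjusted p = 0.0016) and -0.85 ± 0.0824 in PRGL493 cells (adjusted p = 5.5e-07), both against control cells. Knockdown cells held 2.33-fold more NRG1 than PRGL493 cells, a log2 fold change of 1.22 (adjusted p = 3.8e-09). A difference at least as large and in this direction was seen in 309 genes, 2.19% of those tested.

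The EGFR inhibitor ERRFI1 (chr1:8004404-8026308, minus strand) was at 1175, 1207 and 1182 CPM in knockdown cells, 719.1, 729.1 and 720 CPM in PRGL493 cells and 1274, 1304 and 1306 CPM in control cells. PRGL493 libraries lay far below the other 6, and the knockdown libraries lay just below the control libraries. In PRGL493 against control cells the log2 fold change was -0.84 ± 0.0435 (adjusted p = 1.8e-10). In knockdown against control cells it was -0.12 ± 0.0431 (adjusted p = 0.038). That small change passed under only 5 of 17 alternative settings, with adjusted p from 0.012 to 0.13, and it did not pass without any 1 of the 3 control libraries, without knockdown replicate 1 or 3, or without PRGL493 replicate 1 or 2. Knockdown cells were above PRGL493 cells by 0.72 (adjusted p = 1.3e-09).

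PHLDA1 (chr12:76025447-76033932, minus strand) was at 1202, 1244 and 1195 CPM in knockdown cells, 1041, 1021 and 1068 CPM in PRGL493 cells and 1088, 1082 and 1119 CPM in control cells. Knockdown libraries were the highest and PRGL493 libraries the lowest, without overlap. The log2 fold change was 0.15 ± 0.0448 in knockdown against control cells (adjusted p = 0.02), which did not pass without control replicate 1 (adjusted p = 0.078) or control replicate 2 (0.084). In PRGL493 against control cells it was -0.07, with a 95% interval of -0.17 to 0.02 and an adjusted p of 0.21. Knockdown cells were above PRGL493 cells by 0.22 (adjusted p = 0.00068). The exons of ERRFI1 and PHLDA1 overlap those of AL034417.4 and of AC011611.3 and AC011611.4, with the same limit on strand as for EGFR and ERBB2.

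Set directly against each other, knockdown and PRGL493 cells differed in 9 of the 10 genes, beside 50.4% of all genes tested. In knockdown cells 6 were higher, beside 24.4%, and 3 were lower, beside 26.0%. The 6 were AREG, EREG, TGFA, NRG1, ERRFI1 and PHLDA1, and the 3 were the receptors EGFR, ERBB2 and ERBB3. HBEGF was the gene that did not pass.

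The 5 ligand transcripts together summed to 260 ± 11 CPM per kb in knockdown cells, 224 ± 6.0 in PRGL493 cells and 395 ± 9.1 in control cells. The lowest control library, at 389, stood above the highest knockdown library, at 272, and the highest PRGL493 library, at 228. HBEGF made up 22.6 ± 0.42% of that sum in knockdown cells, 25.9 ± 1.5% in PRGL493 cells and 34.6 ± 0.78% in control cells. AREG made up 53.5 ± 1.0%, 53.2 ± 2.2% and 49.0 ± 0.85% of it in the same groups. TGFA made up 12.3%, 12.7% and 9.15%, and EREG made up 5.03%, 4.87% and 3.87%. NRG1 made up 6.59 ± 0.35% in knockdown cells, 3.28 ± 0.26% in PRGL493 cells and 3.35 ± 0.076% in control cells, a share that rests on its main transcript length.

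**Figure D3:**
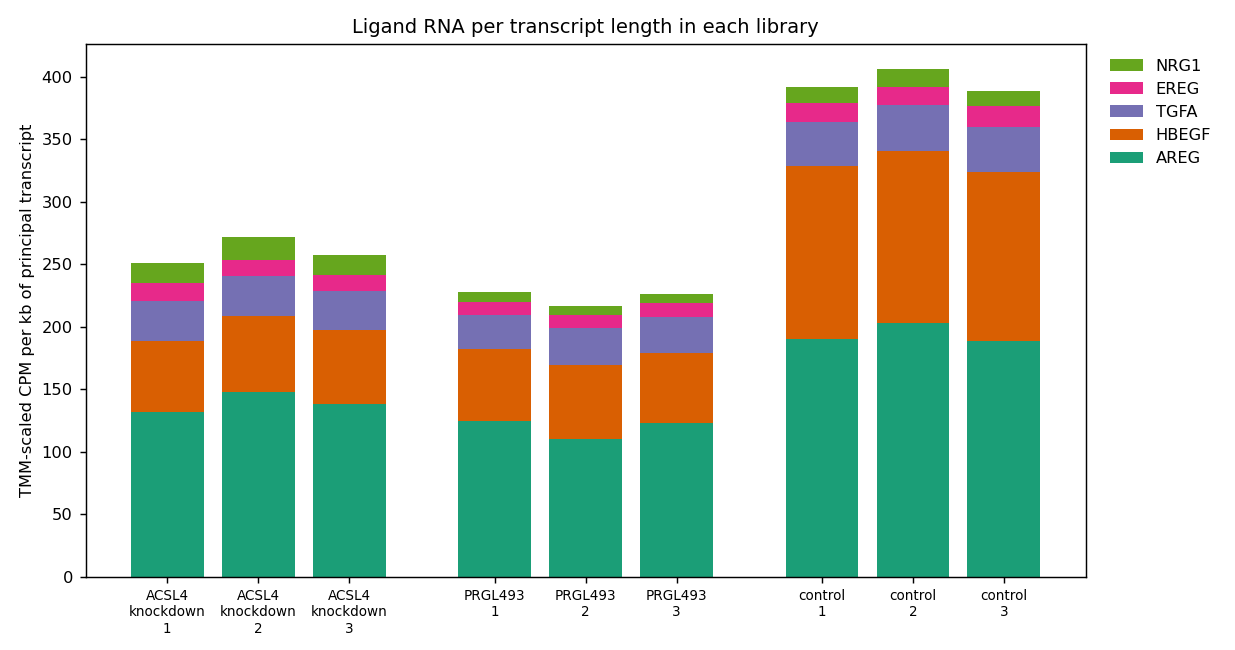
Summed level of the 5 ligands in each library, in CPM per kb of main transcript, stacked by ligand, with knockdown, PRGL493 and control libraries from left to right. The sums were 251 to 272 in knockdown, 217 to 228 in PRGL493 and 389 to 406 in control libraries, and the HBEGF segment was larger in control libraries.

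Ratios of CPM within a library do not depend on how libraries are scaled. HBEGF over TGFA was 1.02 ± 0.029 in knockdown cells, 1.13 ± 0.035 in PRGL493 cells and 2.10 ± 0.062 in control cells. NRG1 over HBEGF was 0.249 ± 0.018 in knockdown cells, 0.108 ± 0.01 in PRGL493 cells and 0.0824 ± 0.0027 in control cells. ERRFI1 over EGFR was 6.02 ± 0.88 in knockdown cells, 2.88 ± 0.34 in PRGL493 cells and 4.75 ± 0.32 in control cells, with no overlap of libraries. PHLDA1 over ERRFI1 was 1.02 ± 0.01, 1.44 ± 0.042 and 0.847 ± 0.015 in the same groups, also without overlap. ERBB2 over EGFR was 0.356 ± 0.045 in knockdown cells, 0.382 ± 0.025 in PRGL493 cells and 0.277 ± 0.037 in control cells. ERBB3 over ERBB2 was 0.223 ± 0.0036, 0.212 ± 0.007 and 0.281 ± 0.013. AREG over EREG, the neighbouring pair, was 2.88 ± 0.32, 2.94 ± 0.26 and 3.41 ± 0.27, and its libraries overlapped between groups. These ratios are descriptions, and no test was made on them.

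**Figure D4:**
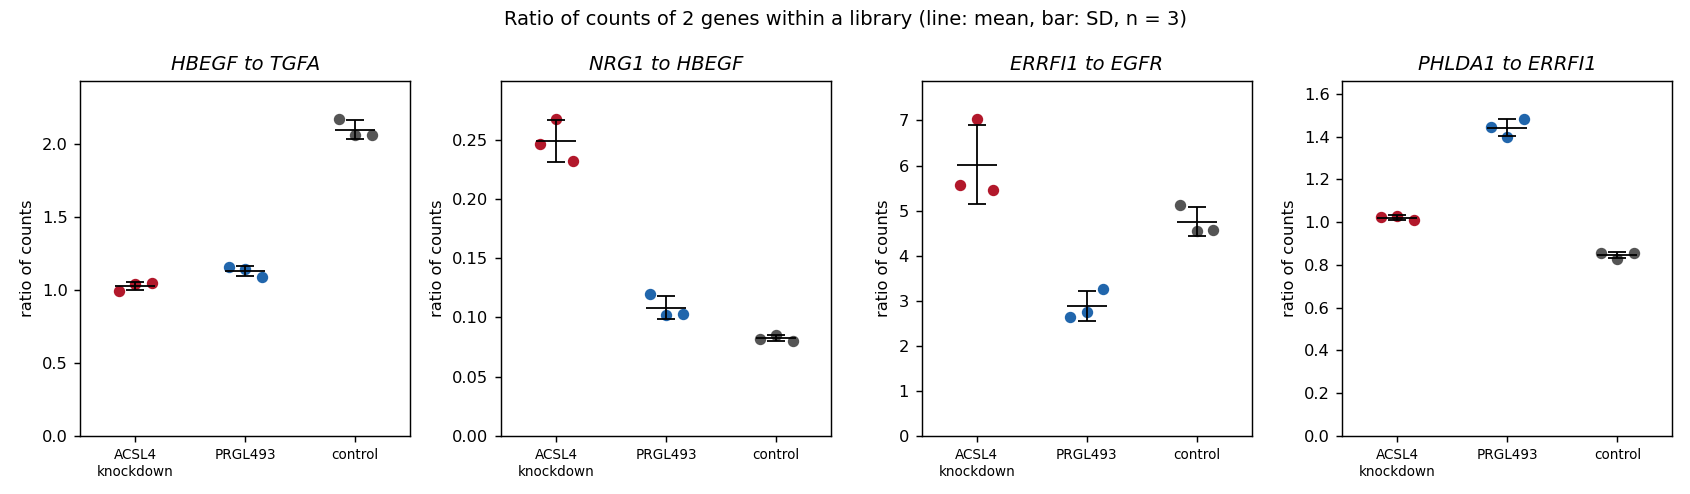
Ratios of CPM between pairs of genes within each library, 1 point per library, with knockdown, PRGL493 and control libraries from left to right. HBEGF over TGFA was 0.99 to 1.15 in the 6 treated libraries and 2.06 to 2.17 in the control libraries, and ERRFI1 over EGFR was 5.45 to 7.03, 2.63 to 3.27 and 4.54 to 5.12 in knockdown, PRGL493 and control libraries.

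Genes around these 10 in the pathway were counted in 7 lists of 82 genes, 78 of which could be tested. In knockdown against control cells 9 were higher and 19 lower, together 35.9% beside the 30.1% of all genes. In PRGL493 against control cells 16 were higher and 18 lower, together 43.6% beside 41.8%. In knockdown against PRGL493 cells 18 were higher and 24 lower, together 53.8% beside 50.4%. These shares lie near the backgrounds and are no result about the pathway as a whole. The counts per list below stand beside shares of all genes tested. These were 14.7% higher and 15.3% lower in knockdown against control cells. They were 21.4% and 20.4% in PRGL493 against control cells, and 24.4% and 26.0% in knockdown against PRGL493 cells. No list was tested as a set, and a count near these shares is no result about its list.

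Of the other ErbB ligands and receptors, EGF, BTC and NRG2 could be tested, and ERBB4, EPGN, NRG3 and NRG4 had at most 9 counts in any library, with NRG3 at 0 in all. EGF, the founding EGFR ligand, was lower in both groups, at 5.26 CPM in knockdown, 4.64 CPM in PRGL493 and 8.42 CPM in control cells. Its log2 fold changes were -0.68 (adjusted p = 5.5e-05) and -0.86 (adjusted p = 3.3e-06). BTC and NRG2 passed in neither comparison with control cells, and none of the 3 passed between the treated groups.

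Of 10 genes of ligand shedding, 2 were higher and 1 lower in knockdown cells, with a list median of -0.017. The metalloprotease inhibitor TIMP3 was at 0.44 and the metalloprotease ADAM15 at 0.21, and ADAM17, the main sheddase of several EGFR ligands, was at -0.19 on the log2 scale. In PRGL493 cells 1 was higher and 4 were lower, with a median of -0.023. RHBDF1, a rhomboid-like partner of ADAM17, was at 0.41, TIMP3 was at -0.28 and ADAM17 at -0.31. In knockdown against PRGL493 cells 2 were higher and 1 was lower, with a median of 0.11. ADAM17 fell in both treated groups, and TIMP3 rose with the knockdown and fell with the inhibitor.

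Of 20 genes of receptor turnover and inhibition, 4 were higher and 4 lower in knockdown cells, with a median of 0.0078. LRIG1, a membrane protein that restrains ErbB receptors, was at 0.56, its relative LRIG2 at 0.45 and the ubiquitin ligase CBLB at 0.68. In PRGL493 cells 5 were higher and 7 lower, with a median of -0.03. The adaptor SH3KBP1 was at -0.32, the phosphatase PTPN2 at -0.39 and the ubiquitin ligase CBLC at -1.80, the last at 0.405 CPM in PRGL493 and 1.41 CPM in control cells. In knockdown against PRGL493 cells 12 of the 20 were higher and 4 lower, with a median of 0.20, beside 24.4% and 26.0% of all genes.

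Of 20 adaptors and kinases of the RAS to MAP kinase relay, 1 was higher and 4 were lower in knockdown cells, with a median of -0.08. The transcription factor SRF was at -0.38, the adaptor SHC1 at -0.19 and HRAS at 0.25. In PRGL493 cells 4 were higher and 2 lower, with a median of 0.10, and the adaptor GAB1 was at 0.68, the kinase ARAF at 0.42 and SRF at -0.23. In knockdown against PRGL493 cells 1 was higher and 8 were lower, with a median of -0.13. Of 14 genes of the PI3K, PLC and STAT arms, none was higher and 3 were lower in knockdown cells, with a median of -0.06. Among these were the transcription factors STAT5B at -0.33 and STAT3 at -0.22. In PRGL493 cells 5 were higher and none was lower, with a median of 0.12, and PIK3R2 was at 0.32, AKT1 at 0.29 and PLCG1 at 0.20. In knockdown against PRGL493 cells none was higher and 7 were lower, with a median of -0.21.

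Of 9 other genes known to follow MAP kinase output, 2 were higher and 5 lower in knockdown cells, with a median of -0.27. DUSP6, a phosphatase that acts on ERK, was at -1.52, the feedback inhibitor SPRY4 at -0.98, and EPHA4, an ephrin receptor, at 1.24, the last at 4.99 CPM in knockdown and 2.12 CPM in control cells. In PRGL493 cells 1 was higher and 3 were lower, with a median of 0.03, and DUSP6 was at -0.94, SPRY4 at -0.85 and EPHA2 at -0.27. In knockdown against PRGL493 cells 3 were higher and 4 lower, with a median of -0.14. DUSP6 and SPRY4 were the only ones of the 9 that passed as lower in both treated groups, as HBEGF did. Unlike HBEGF, DUSP6 was also lower in knockdown than in PRGL493 cells (-0.57, adjusted p = 3e-08). CCND1 was lower in knockdown cells, at -0.28, and higher in PRGL493 cells, at 0.17. SPRY2 was at -0.32 in knockdown cells and did not pass in PRGL493 cells. ERRFI1 fell clearly with the inhibitor and little with the knockdown. PHLDA2, a relative of PHLDA1, was at -0.36 in knockdown and -0.32 in PRGL493 cells and fell in both, and PHLDA3 passed in neither. Neither gene passed between the treated groups.

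The genes whose levels followed HBEGF most closely were IL1B, MMP1 and MIDN, out of 11072 genes that averaged 2 or more in log2 CPM. Likeness was the root mean square difference of centred log2 CPM over the 9 libraries, which was 0.077 for IL1B, 0.0804 for MMP1 and 0.0807 for MIDN. The cytokine gene IL1B changed by -1.16 and -1.12 in knockdown and PRGL493 cells against control cells, the collagenase gene MMP1 by -1.17 and -1.20, and MIDN by -1.16 and -1.11, all on the log2 scale. With 3 groups of libraries, this likeness rests mostly on the group means.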

How the data were processed

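RNA from 9 libraries was measured by sequencing. The values the authors deposited are expected counts per gene, with GRCh38 as the genome build per the submitters' processing notes. Of a library's values 10 to 11.3% are not whole. How reads were aligned, assigned and stranded is not given in the sources used here. Values were rounded to whole numbers, since the test planned needs counts. edgeR 4.0.16 (R 4.3.3) was run with filterByExpr, TMM scaling and a robust quasi-likelihood fit to all 9 libraries by group, and p-values were Benjamini-Hochberg adjusted over 14135 genes. A gene passed below 0.05. The p-values reflect only variation between cell batches within groups. That spread was pooled over the 3 groups, with 6 residual degrees of freedom, and its estimate also drew on the other genes tested. The biological coefficient of variation was 6.38%. Replicates differed beyond counting noise, so none was merged. Between pairs of replicates the chi-square per degree of freedom was 8.9 to 34.5 in knockdown cells. It was 4.81 to 10.2 in PRGL493 and 4.08 to 5.06 in control cells. The pooled spread does not carry this difference between groups.

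Named genes were the 10 members, ACSL4, up to 3 genes with the smallest adjusted p per list and comparison, and the 3 nearest patterns of members with a 2-fold change in either treatment. Members and lists were chosen with earlier results of these data known. Alternatives were DESeq2 1.42.0, other scalings and filters, a replicate block and leaving out each library. Positions, lengths and exon overlaps came from GENCODE release 29. RefSeq promoters were used for 8 of the 10 members. Windows on chromosome 8, where NRG1 lies, were left out, and no window was found for ERBB3. Some genes of the lists are not reported here by name.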

Additional observations from a re-analysis of the deposited data

How the results depend on the processing

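The 30 values (10 genes in 3 comparisons) were each recomputed under 17 alternatives. None changed direction; 488 of 510 stayed on the same side of the threshold and 22 no longer passed, all for EGFR between the treated groups and for EREG, ERRFI1 and PHLDA1 in knockdown against control cells. EGFR between the treated groups also missed the threshold with no filter on low counts (adjusted p = 0.057). ERRFI1 in knockdown against control cells also missed it with upper-quartile factors (0.13), library totals alone (0.1), no filter (0.081) and only the 2 groups compared (0.077). The cause was not tested. Leaving out 1 library gave 3074 to 4770 passing genes in knockdown against control, 4769 to 7132 in PRGL493 against control and 5941 to 7303 in knockdown against PRGL493.

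Same-numbered libraries deviated together at most weakly: 9 correlations ran from -0.0841 to 0.152, and 2 were over 0.1. Between knockdown and control libraries all same-numbered correlations were positive, at 0.108, 0.152 and 0.0619. Differently numbered libraries of these groups ran from -0.138 to 0.0249. With a replicate block 8, 7 and 8 of the 10 genes passed in the same 3 comparisons, out of 3879, 5635 and 6857 genes in all; ERRFI1 in the first (adjusted p = 0.08) and EGFR in the last (0.054) no longer passed.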

Other observations

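NRG1 fell short of a 2-fold change against control cells, so its neighbours were looked up after its values were seen. By the same measure over 9 libraries the nearest were SERPINA1 at 0.067, AARS at 0.0716 and GGT1 at 0.079. All were higher in knockdown and lower in PRGL493 than in control cells: SERPINA1 by 0.35 and -0.84, AARS by 0.33 and -0.94, and GGT1 by 0.22 and -0.91 on the log2 scale. They were picked for likeness to NRG1 in these libraries, so the shared directions follow from the choice.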
